A study of Mus musculus with 12 samples.

Results

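CD2 and the SLAM family form a group of adhesion and signalling receptors on T cells, and 9 genes of the group were examined: Cd48, Ly9, Slamf1, Cd84, Slamf6, Slamf7, Cd2, Cd5 and Cd6. ChIP-seq had been run against H3K9/14ac, histone H3 acetylated on lysine 9 or 14 as found at active regulatory DNA, in mouse T helper 17 (Th17) cells that lack the glucose transporter GLUT3 (KO) and in wild-type cells (WT). The genes were chosen by name out of 21896 protein-coding genes, and each was read over its GRCm38 span plus 5 kb on each side. Those 9 windows hold 48 of the 40909 regions in the authors' deposited table of KO against WT. Peaks called on paired-end fragments within them numbered 55, 52 and 48 in KO replicates 1 to 3 and 49, 45 and 50 in WT replicates 1 to 3. KO cells were labelled Slc2a3-fl/fl Cd4-cre and WT cells wild type, with C57BL/6 as the strain. The Cre is driven by Cd4 regulatory sequence and acts in T cells from the thymus onward, and the labels do not state whether WT cells carried it. Naive T cells of both genotypes were polarized to Th17 in culture for 3 days and then received PMA and ionomycin for 3 h with Bref A and Monensin. All 6 ChIP samples were barcoded and combined in 1 immunoprecipitation, and the 6 inputs were not used. Nothing in the labels says that replicates came from separate mice, so every p-value and FDR below measures a spread between libraries that may be technical.

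Most SLAM receptors bind a second copy of themselves on a neighbouring cell, and their tails recruit SAP family adaptors and, through them, the kinase Fyn. CD48 has no tail of its own: it is held in the membrane by a lipid anchor and serves as ligand of CD244 and, in mice, of CD2. CD2 helps T cells adhere to partner cells and adds to signals from the antigen receptor. CD5 and CD6 belong to the scavenger receptor cysteine-rich family; CD5 tunes antigen receptor signals downward and CD6 binds ALCAM. Slamf7, Ly9, Cd48, Slamf1, Cd84 and Slamf6 lie side by side on mouse chromosome 1, Cd5 and Cd6 are neighbours on chromosome 19, and Cd2 lies on chromosome 3.

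The promoters of 4 genes are given because they stand for the contrast between the genes: Cd48, Cd84 and Slamf6 were lower in KO at every tested region of the authors' deposited table, and Cd5 at no region. Each runs 5′ to 3′ on the gene's strand, 250 bases before to 50 after the annotated start, from RefSeq in GRCm38.p6, and capitals mark matches to the motifs searched.
Cd48, chr1:171681742-171682041, plus strand: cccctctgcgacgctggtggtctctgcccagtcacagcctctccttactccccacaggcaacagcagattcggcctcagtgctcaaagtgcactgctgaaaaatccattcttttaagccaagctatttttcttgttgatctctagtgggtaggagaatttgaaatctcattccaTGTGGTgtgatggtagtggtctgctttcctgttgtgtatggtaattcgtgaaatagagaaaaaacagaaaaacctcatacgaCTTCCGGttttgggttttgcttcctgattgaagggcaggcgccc
Cd84, chr1:171839447-171839746, plus strand: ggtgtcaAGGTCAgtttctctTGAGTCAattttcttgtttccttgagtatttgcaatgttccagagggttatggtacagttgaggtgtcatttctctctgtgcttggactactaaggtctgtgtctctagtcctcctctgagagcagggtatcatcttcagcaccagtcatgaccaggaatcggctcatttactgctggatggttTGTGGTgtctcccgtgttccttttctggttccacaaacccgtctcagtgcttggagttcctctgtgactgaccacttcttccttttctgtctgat
Slamf6, chr1:171917212-171917511, plus strand: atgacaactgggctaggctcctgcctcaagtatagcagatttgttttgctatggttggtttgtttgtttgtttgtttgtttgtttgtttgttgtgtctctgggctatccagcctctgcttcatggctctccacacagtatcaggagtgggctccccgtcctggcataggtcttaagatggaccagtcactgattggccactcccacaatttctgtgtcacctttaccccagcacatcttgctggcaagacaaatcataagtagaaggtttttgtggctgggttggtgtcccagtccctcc
Cd5, chr19:10738925-10739224, minus strand: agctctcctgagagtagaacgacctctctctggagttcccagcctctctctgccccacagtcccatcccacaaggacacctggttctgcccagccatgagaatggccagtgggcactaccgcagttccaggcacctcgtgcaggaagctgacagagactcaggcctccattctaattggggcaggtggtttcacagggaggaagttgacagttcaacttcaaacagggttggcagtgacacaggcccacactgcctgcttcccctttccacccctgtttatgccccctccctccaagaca
RefSeq entries matched 6 of the 9 genes, and 7 motifs were searched on both strands. The AP-1 motif (TGANTCA) occurred in Cd84 at position -229 from the start and in Slamf7 at -42; 7.81% of 32851 promoters hold it. The RUNX motif (TGTGGT) occurred in Cd48 at -76 and in Cd84 at -45, and 16.8% of promoters hold it. The ROR motif (AGGTCA) occurred in Cd84 alone of the 6, at -243, against 16.3% of promoters. The ETS core (CCGGAAG) occurred in Cd48 alone, on the minus strand and 6 bases after the start, against 8.86% of promoters. No match in these 6 windows was found for NFAT (GGAAAA), the GC box (GGGCGG) or the TATA box (TATAAA), which 23.4%, 35.7% and 13.6% of promoters hold. These 6 promoters held between 1 and 7 CpG dinucleotides each, against a median of 7 over all promoters. No listed motif overlaps another match in the sequences printed.

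KO libraries had 39264 to 40582 paired-end peaks and WT libraries 40997 to 43507. The peak lists gave a mean fragment coverage of 1.85, 2.29 and 1.92 in KO replicates 1 to 3 and 3.99, 3.48 and 2.97 in WT replicates 1 to 3, so every KO library was shallower than every WT library (ratio 0.580, two-sided exact permutation p = 0.1 with 3 libraries per genotype). That is the smallest p such a design allows, and depth and genotype cannot be told apart here. Slc2a3, the targeted gene, had 3822, 5427 and 6128 bp covered by peaks in KO libraries against 12507, 12443 and 12461 bp in WT libraries, and 8 of its 9 regions fell in the authors' deposited table. KO replicate 3 had 11 peaks on chromosome Y, against 1 or 2 in every other library. Of the T cell and Th17 markers, Il17a and Il17f were lower in the authors' deposited table (log2 fold change -1.67, FDR 3.17e-12, and -1.95, FDR 7.58e-11). At Cd4, whose regulatory sequence drives the Cre, the region of lowest FDR was higher by 6.77 (FDR 3.44e-168) in the authors' deposited table. Of the 3 regions of Cd4, 1 was higher and 1 lower, with a median of 0.42. Peaks covered 10921, 10639 and 10500 bp there in KO libraries and 9845, 8970 and 9582 bp in WT libraries. The cause of the Cd4 value was not tested. Of other cell types, Ms4a1 and Pax5 (B cell), Lyz2 (myeloid), Cd8a and Ncr1 (CD8 T and NK cell) and Hbb-bt and Hbb-bs (erythroid) had no peak in any library. The B cell marker Cd79a was covered over 5840 to 7022 bp in KO and 7402 to 8234 bp in WT libraries. The summed cover of the 5 myeloid markers was 8512 to 10963 bp in KO and 15037 to 16621 bp in WT, that of the 5 CD8 T and NK cell markers 3287 to 5920 bp in KO and 4564 to 7936 bp in WT, and that of the 4 erythroid markers 1336 to 1787 bp in KO and 2081 to 3204 bp in WT. Their part in the results below was not tested. In such bulk samples, fewer cells carrying a mark and less of it per cell cannot be told apart.

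Calls of lower acetylation in KO fell on 6 of the 9 genes, those of chromosome 1, and on none of Cd2, Cd5 and Cd6. By the region of lowest FDR, 6 of the 9 genes were lower and 2 higher. Over all 13146 protein-coding genes with a region, 67.6% were lower and 11.8% higher by that measure, so the count of lower genes lay near the background. The authors' deposited table gives for each region the log2 fold change (KO over WT) of its best 150 bp window and an FDR, and a region was called at an FDR under 0.05. Positive values stand for more acetylation in KO: where all 3 KO libraries and no WT library had a peak, 99.5% of 1063 regions are positive in the authors' deposited table. Of the 26 regions at the 6 chromosome 1 genes, 14 were lower, 0 were higher and 12 were not called in the authors' deposited table, with a median log2 fold change of -0.97. Of the 22 regions at Cd2, Cd5 and Cd6, 0 were lower, 2 were higher and 20 were not called in the authors' deposited table, with a median of 0.41. Over all 48 regions that makes 14 lower (29.2%) and 2 higher (4.17%) with a median of -0.39, beside 46.3% lower, 12.7% higher (59.0% called) and a median of -0.62 over all 40909 regions of the authors' deposited table. The share lower among chromosome 1 regions, 53.8%, lay near that background, and Cd2, Cd5 and Cd6 lay below it. By 150 bp windows, 169 of 275 (61.5%) were counted down and 1 up at the chromosome 1 genes, against 39.0% down and 9.63% up over all regions of the authors' deposited table. At Cd2, Cd5 and Cd6, 4 of 538 windows were counted down and 24 (4.46%) up in the authors' deposited table. Regions beside each other share fragments and are not replicates, and no test of a difference between the gene groups was made. Medians of single genes crossed the groups: Cd5 had -0.47, against -0.44 at Slamf7 and -0.41 at Slamf1, in the authors' deposited table. Were libraries scaled by their mean coverage, each log2 fold change of the authors' deposited table would be 0.30 higher, which turns the sign of none of the 16 called regions.

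**Figure D1:**
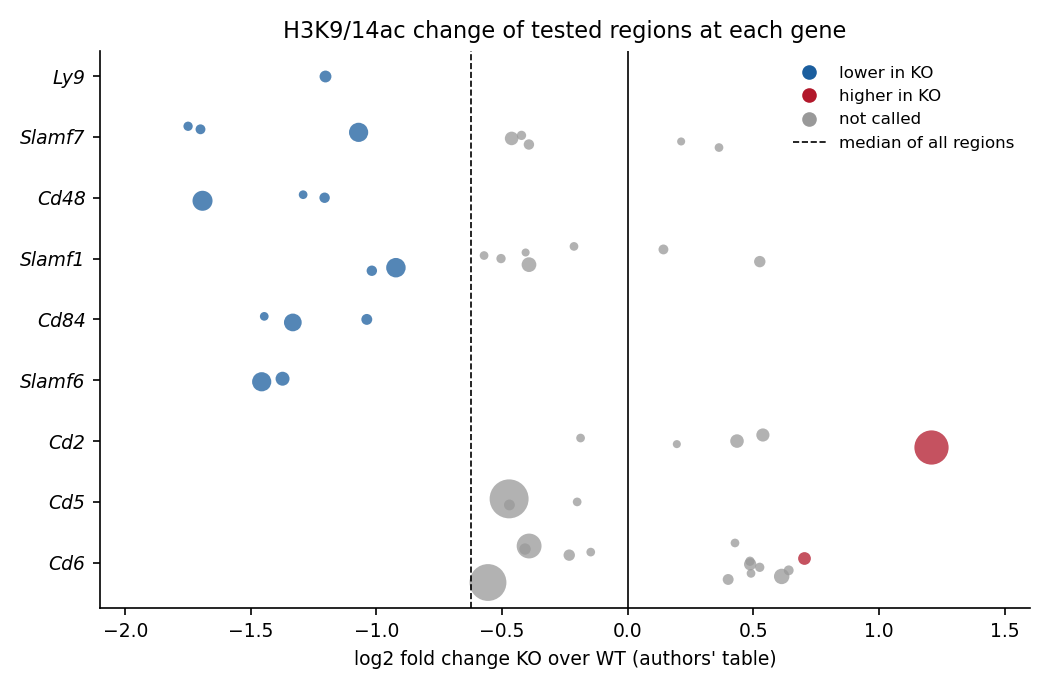
Each point is 1 tested region of the authors' deposited table within a gene's span plus 5 kb; the x axis is the log2 fold change KO over WT, the y axis the gene, and point area grows with region width. All called regions of the chromosome 1 genes lie between -1.75 and -0.92, left of the dashed median of all regions (-0.62), and the 2 called regions of Cd2 and Cd6 lie at 1.21 and 0.70.

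Most regions held a peak in every library. Of the 48 regions, 35 had a peak in all 6 libraries, and 0 had a peak in all libraries of one genotype and none of the other. Among all 40909 regions, 2731 had a peak in every WT and no KO library, and 1063 in every KO and no WT library. No share over all regions is given for peaks in all 6 libraries, so neither count is read as a trait of these genes. Peaks covered 102796, 106387 and 101123 bp of the 343.7 kb of windows in KO libraries and 115227, 113096 and 117043 bp in WT libraries. The ranges did not overlap, with a KO to WT ratio of 0.90 (exact permutation p = 0.1, two-sided). As a share of all peak bases in a library these windows took 0.191%, 0.182% and 0.183% in KO libraries and 0.163%, 0.173% and 0.176% in WT libraries, which were all lower than in KO (exact permutation p = 0.1, two-sided). Gene by gene, every KO library had fewer covered bp than every WT library at 5 of the 9 genes, beside 41.2% of 14013 protein-coding genes with a peak, and more at 1, beside 6.18%. The median ratio of KO to WT covered bp was 0.846 over the 9 genes and 0.82 over all genes with peaks in both genotypes.

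**Figure D2:**
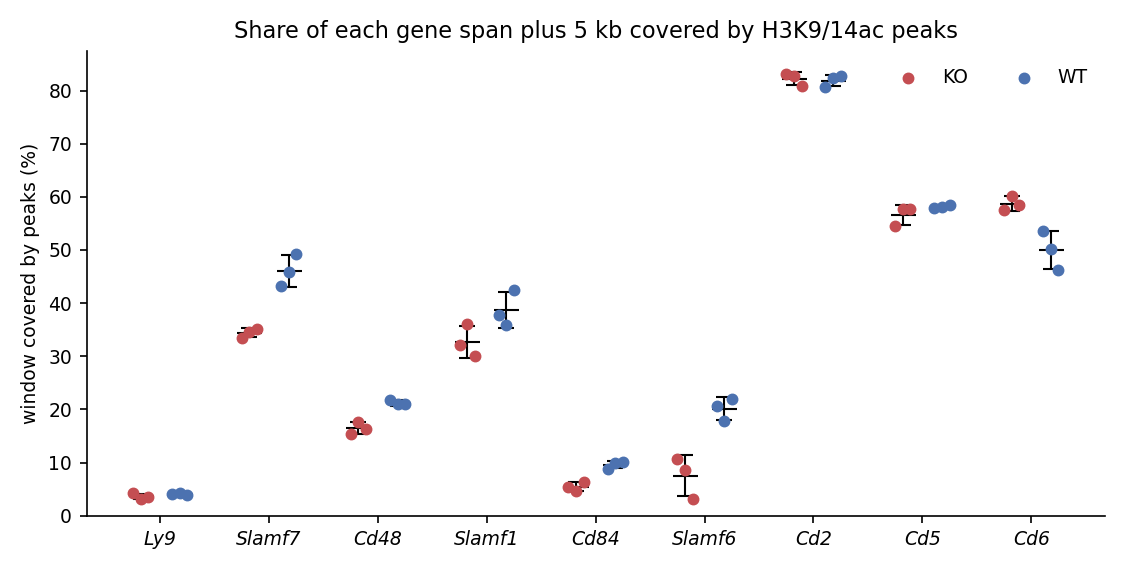
The y axis is the percent of each gene's span plus 5 kb covered by paired-end peaks, with 1 point per library (KO left, WT right) and black bars for the mean and SD (n = 3 per genotype). KO libraries lie below WT libraries at Slamf7, Cd48, Cd84, Slamf6 and, by a narrow margin, Cd5, and above them at Cd6.

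Cd48, the ligand among these genes, fell at all 3 of its regions, which lie at the start of the gene. Its 3 regions had log2 fold changes of -1.69 (FDR 7.87e-12), -1.21 (FDR 4.85e-07) and -1.29 (FDR 0.000232) in the authors' deposited table, and all 42 of their windows were counted down. Regions with every window down made up 25.9% of the authors' deposited table. The first region, 171680101 to 171685050 on chromosome 1, covers the annotated start, where each of the 6 libraries had a peak. Cover of that region was 4210, 4761 and 4214 bp in KO libraries and 4827, 4761 and 4761 bp in WT libraries, which overlapped (exact permutation p = 0.3, two-sided). At the 2 regions after it the groups did not overlap, with 675, 704 and 636 bp in KO libraries against 900, 817 and 818 bp in WT libraries at the second. Over the gene's window, peaks covered 5214, 5974 and 5576 bp in KO libraries and 7416, 7117 and 7118 bp in WT libraries. All KO libraries were lower (ratio 0.774, exact permutation p = 0.1, two-sided). The peaks were also more broken up, with 3 in every KO library against 1, 2 and 2 in WT libraries, a split that 4.87% of genes showed in this direction. The highest Cd48 summit, in multiples of the library's mean coverage, was 60.5, 72.9 and 67.2 in KO libraries and 87.7, 93.9 and 96.0 in WT libraries. This scaled height had a KO to WT ratio of 0.723 (exact permutation p = 0.1, two-sided), and 17.1% of 11631 genes had all KO libraries below all WT libraries.

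Cd84, a self-binding receptor of T and B cells, fell at all 3 of its regions, with log2 fold changes of -1.33 (FDR 5.28e-10), -1.04 (FDR 0.000101) and -1.45 (FDR 0.000204) in the authors' deposited table and 35 of 35 windows counted down. At the third region, paired-end peaks covered 409 bp in WT replicate 3 and 0 bp in every other library of either genotype. The first region of Cd84, 171839551 to 171843300 on chromosome 1, had 2265, 1999 and 2664 bp covered in KO libraries and 3541, 3750 and 3609 bp in WT libraries. The first peak began 0.588, 0.544 and 0.072 kb from the annotated start in KO libraries and at -0.066, -0.254 and -0.254 kb in WT libraries. A peak thus lay over that start in 0 of 3 KO and 3 of 3 WT libraries, by a short distance in KO replicate 3 and WT replicate 1. No share over all genes is given for this split. Within 2 kb of that start, 1413, 1457 and 1929 bp were covered in KO libraries and 2067, 2255 and 2255 bp in WT libraries, without overlap (exact permutation p = 0.1, two-sided). Over the whole window the KO mean was 3323 ± 539 bp and the WT mean 5843 ± 397 bp (SD, n = 3 each), a ratio of 0.569. Scaled summit heights were 56.2, 67.2 and 56.8 in KO libraries and 92.5, 102.8 and 110.4 in WT libraries. These did not overlap (exact permutation p = 0.1, two-sided, for KO against WT at this gene). The KO to WT ratio of 0.590 was the lowest of the 9 genes, a rank that was not tested.

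Slamf6, the receptor also called Ly108, had the lowest median log2 fold change of the 9 genes, -1.42 in the authors' deposited table, with all 44 windows counted down. Both of its regions were lower: the one at the start, 171917251 to 171921750 on chromosome 1, by -1.46 (FDR 1.68e-09), and one inside the gene, 171938551 to 171940650, by -1.37 (FDR 6.2e-08), in the authors' deposited table. The start region had 2985, 1718 and 1313 bp covered in KO libraries and 4262, 3602 and 4389 bp in WT libraries. The internal region had 1155, 1546 and 0 bp in KO libraries and 2079, 1668 and 2079 bp in WT libraries, so KO replicate 3 lacked that peak. Before the gene, between -2.42 and -0.567 kb from its low end, peaks lay in 2 of 3 KO and 3 of 3 WT libraries, of 298 and 331 bp in KO replicates 1 and 2 and up to 1854 bp in WT; no region of the authors' deposited table lies there. In all, 4438, 3595 and 1313 bp were covered in KO libraries and 8545, 7362 and 9109 bp in WT libraries. All KO libraries were lower (exact permutation p = 0.1, two-sided, for KO against WT at this gene). The KO to WT ratio of 0.374 was the lowest of the 9 genes, a rank that was not tested. Slamf6 also had the lowest scaled summits in both genotypes, 29.2, 24.0 and 24.5 in KO libraries and 38.1, 35.6 and 34.0 in WT libraries, with a ratio of 0.721 (exact permutation p = 0.1, two-sided).

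**Figure D3:**
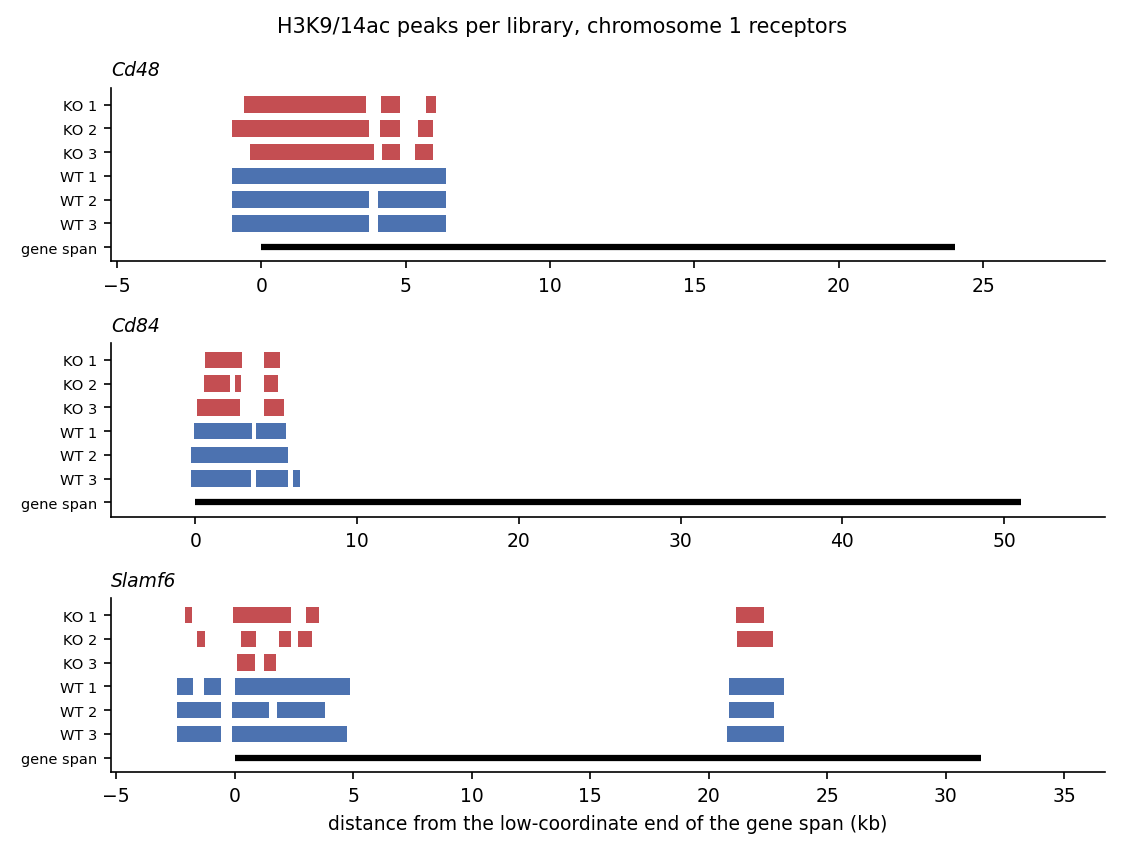
Bars are paired-end peaks of each library (KO rows above WT rows) at Cd48, Cd84 and Slamf6; the x axis is the distance in kb from the low-coordinate end of the gene span, which is the black line. Peaks at the Cd84 start reach less far in every KO library than in every WT library, the first Cd48 peak of KO replicate 2 matches that of WT replicates 2 and 3 (4761 bp), and the Slamf6 peak inside the gene is missing in KO replicate 3.

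Ly9 (CD229), a further self-binding SLAM receptor, carried a single short region at the high-coordinate end of its span, 171606301 to 171607650 on chromosome 1. It was lower by -1.21 (FDR 0.000836) in the authors' deposited table, with 9 of 9 windows down. There, 906, 914 and 1015 bp were covered in KO libraries and 1159, 1237 and 1138 bp in WT libraries. KO replicate 1 had a second short peak nearby, so over the whole window the groups overlapped, at 1204, 914 and 1015 bp in KO libraries and 1190, 1237 and 1138 bp in WT libraries (exact permutation p = 0.3, two-sided). The scaled summit was 69.7, 69.0 and 74.5 in KO libraries and 84.5, 96.8 and 102.7 in WT libraries, a ratio of 0.751 without overlap (exact permutation p = 0.1, two-sided).

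Slamf7 (CRACC) and Slamf1 (CD150) were called lower at some of their regions. At Slamf7, the authors' deposited table has 3 of 8 regions lower and 19 of 67 windows counted down. The steepest falls of all 48 regions stood before the Slamf7 gene: -1.75 (FDR 3.49e-09) at 171656551 to 171657150 and -1.70 (FDR 2.22e-10) at 171655501 to 171656250 on chromosome 1, with best windows at -7.78 and -6.88 kb from the annotated start in the authors' deposited table. The first of these had 399, 0 and 0 bp covered in KO libraries and 600, 538 and 600 bp in WT libraries. The region over the start fell by 1.07 on the log2 scale (FDR 0.000521), with 10 of its 30 windows counted down, in the authors' deposited table. Covered bp over the window were 10249, 10608 and 10774 in KO libraries and 13220, 14052 and 15082 in WT libraries, all lower in KO (ratio 0.747, exact permutation p = 0.1, two-sided). The highest Slamf7 summit did not follow: scaled to coverage it was 72.4, 66.4 and 69.8 in KO libraries and 46.1, 59.7 and 66.0 in WT libraries. KO libraries were all above WT libraries there (ratio 1.21, exact permutation p = 0.1, two-sided), as at 20.4% of genes; in unscaled fragments the order turned, with means of 140 in KO and 196 in WT. Without WT replicate 1, the scaled difference shrank to 6.67, against 12.3 with it.

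Slamf1, a receptor that in T cells signals through SAP, had 2 of 9 regions lower in the authors' deposited table: -0.92 (FDR 0.00103) over the annotated start, with 13 of 31 windows down, and -1.02 (FDR 0.0031) with a best window at -4.61 kb from it. The other 7 regions of Slamf1, inside the gene, ran between -0.57 and 0.53 without a call in the authors' deposited table. The start region was covered almost whole in each library, by 4543, 4406 and 4543 bp in KO libraries and 4543 bp in each WT library. Over the window, 14143, 15876 and 13232 bp were covered in KO libraries and 16644, 15798 and 18692 bp in WT libraries, which overlapped (exact permutation p = 0.2, two-sided); by single-read peaks the difference turned, to 15.7 bp more in KO. Peak numbers did not overlap, with 8, 9 and 10 in KO libraries and 11 in each WT library (exact permutation p = 0.1, two-sided), beside 6.96% of genes. Scaled summits overlapped, with means of 83.8 ± 5.8 in KO and 78.5 ± 11.9 in WT (SD, n = 3 each; exact permutation p = 0.6, two-sided).

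Cd2, the receptor that binds CD48, lay in a broad acetylated region that was called higher, and its other regions were not called. Its span of 12032 bp lies inside a single region of 15600 bp, 101272651 to 101288250 on chromosome 3; 0.2% of regions in the authors' deposited table are at least as wide. That region was higher by 1.21 (FDR 4.26e-06) in the authors' deposited table, but 13 of its 104 windows were counted up and 0 down. The best window lay 0.3 kb inside the low-coordinate edge of the region, at -2.88 kb from the low end of the gene span. The other 4 regions of Cd2 ran between -0.19 and 0.54 and were not called in the authors' deposited table. Peaks covered 18305, 18236 and 17795 bp in KO libraries and 17770, 18140 and 18210 bp in WT libraries, and the groups overlapped (exact permutation p = 0.5, two-sided). The scaled summit was 122.7, 119.7 and 114.1 in KO libraries and 95.3, 101.1 and 94.6 in WT libraries. All KO libraries were above all WT libraries (ratio 1.23, exact permutation p = 0.1, two-sided); without scaling, the means were 240.0 fragments in KO and 338 in WT. Among 488 regions of at least 8 kb, 275 (56.4%) fell and 84 (17.2%) rose in the authors' deposited table.

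Cd5, the inhibitory scavenger-family receptor, had no called region. Its main region ran over 20400 bp, 10729351 to 10749750 on chromosome 19, across the annotated start, with a log2 fold change of -0.47 (FDR 0.46) and 0 of 136 windows counted either way in the authors' deposited table. A further region, 10714801 to 10715850 (-0.47, FDR 0.139, in the authors' deposited table), lies within 5 kb of Vps37c as well, which encodes a subunit of the ESCRT-I sorting complex. Peaks covered all 4001 bp around the start in each of the 6 libraries. Over the window, 16837, 17831 and 17846 bp were covered in KO libraries and 17898, 17955 and 18087 bp in WT libraries; these did not overlap, at a KO to WT ratio of 0.974 (exact permutation p = 0.1, two-sided). With peaks of -log10 q of at least 5 the difference turned, to 225 bp more in KO, and without KO replicate 1 it was -141.5 bp, against -475 bp with it. Cd5 had the highest scaled summits of the 9 genes, 175.1, 150.2 and 173.4 in KO libraries and 130.1, 174.0 and 179.1 in WT libraries, which overlapped (exact permutation p = 0.9, two-sided).

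Cd6, the ALCAM receptor, was the only one of the 9 genes with more covered bp in every KO library, at 29159, 30528 and 29676 bp against 27152, 25436 and 23468 bp in WT libraries (ratio 1.17, exact permutation p = 0.1, two-sided). KO libraries also had more Cd6 peaks, 17, 14 and 15 against 13, 11 and 13 in WT libraries, without overlap (exact permutation p = 0.1, two-sided). One of 14 regions was called, 10817701 to 10819350 on chromosome 19, higher by 0.70 (FDR 0.0305) with 7 of 11 windows up in the authors' deposited table. Peaks over it covered 1601, 1010 and 1420 bp in KO libraries and 969, 1168 and 686 bp in WT libraries, and these overlapped (exact permutation p = 0.2, two-sided). The other 8 positive regions of Cd6 ran between 0.40 and 0.64 with FDRs of 0.0534 to 0.609 in the authors' deposited table. The widest region that reaches into the Cd6 window, 18150 bp at 10772551 to 10790700, lies mostly outside the gene span, which begins at 10789339. This region was not called (-0.56, FDR 0.182) in the authors' deposited table. Its best window lay at -2.76 kb from the low end of the span. Of the 14 regions of Cd6, 9 were positive and 5 negative in the authors' deposited table. The other negative regions had -0.41, -0.39, -0.23 and -0.15 in the authors' deposited table, and none was called. The one at -0.39 (FDR 0.799) ran over 7950 bp, 10825651 to 10833600. Scaled summits were 115.7, 110.0 and 140.1 in KO libraries and 95.0, 128.1 and 120.9 in WT libraries, and overlapped (exact permutation p = 0.6, two-sided).

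**Figure D4:**
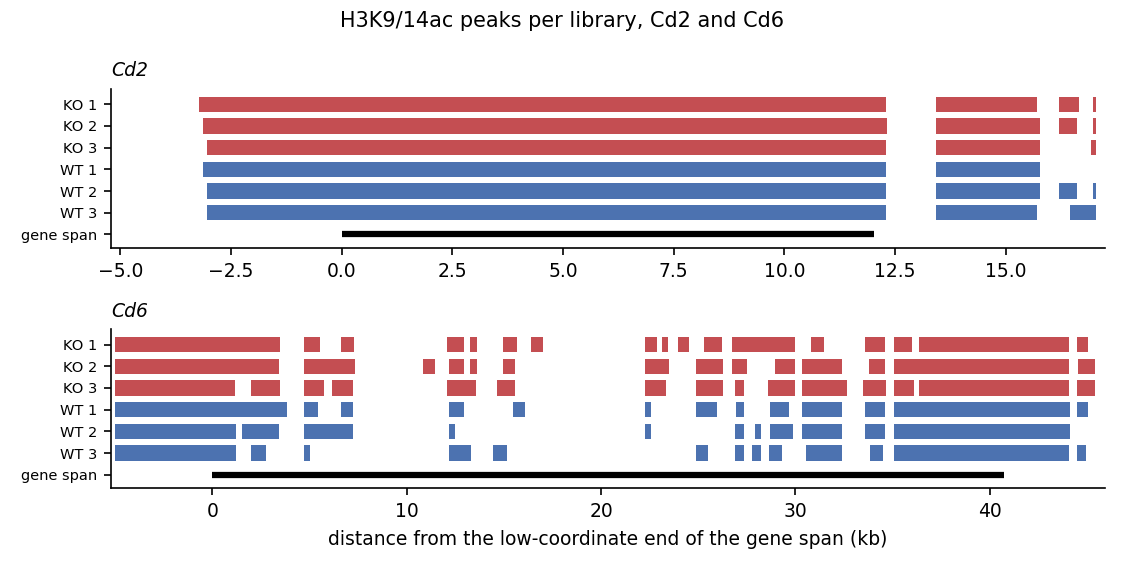
Bars are paired-end peaks of each library (KO rows above WT rows) at Cd2 and Cd6; the x axis is the distance in kb from the low-coordinate end of the gene span, which is the black line, and peaks end at the edge of the window. One peak spans Cd2 in all 6 libraries, and Cd6 holds 14 to 17 peaks in KO libraries and 11 to 13 in WT libraries.

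By the share of the window covered by peaks, Cd2 ranked first, at 82.2% ± 1.3 in KO and 81.9% ± 1.1 in WT (SD, n = 3 each), and Ly9 last, at 3.63% ± 0.51 in KO and 4.13% ± 0.17 in WT. In KO, Cd6 (58.7% ± 1.4) came next and overlapped Cd5 (56.6% ± 1.9). Slamf7 (34.4% ± 0.9) and Slamf1 (32.7% ± 3.0) overlapped in KO as well, above Cd48 (16.4% ± 1.1). Slamf6 (7.51% ± 3.90) overlapped Cd84 (5.45% ± 0.88) in KO. In WT the order was Cd5 (58.2% ± 0.3), Cd6 (50.0% ± 3.6), Slamf7 (46.1% ± 3.0), Slamf1 (38.7% ± 3.4), Cd48 (21.2% ± 0.5), Slamf6 (20.1% ± 2.1) and Cd84 (9.58% ± 0.65), and only Cd6 with Slamf7 and Cd48 with Slamf6 overlapped among these neighbours. Windows include 5 kb outside each span, so a short gene can be covered beyond its ends.

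**Figure D5:**
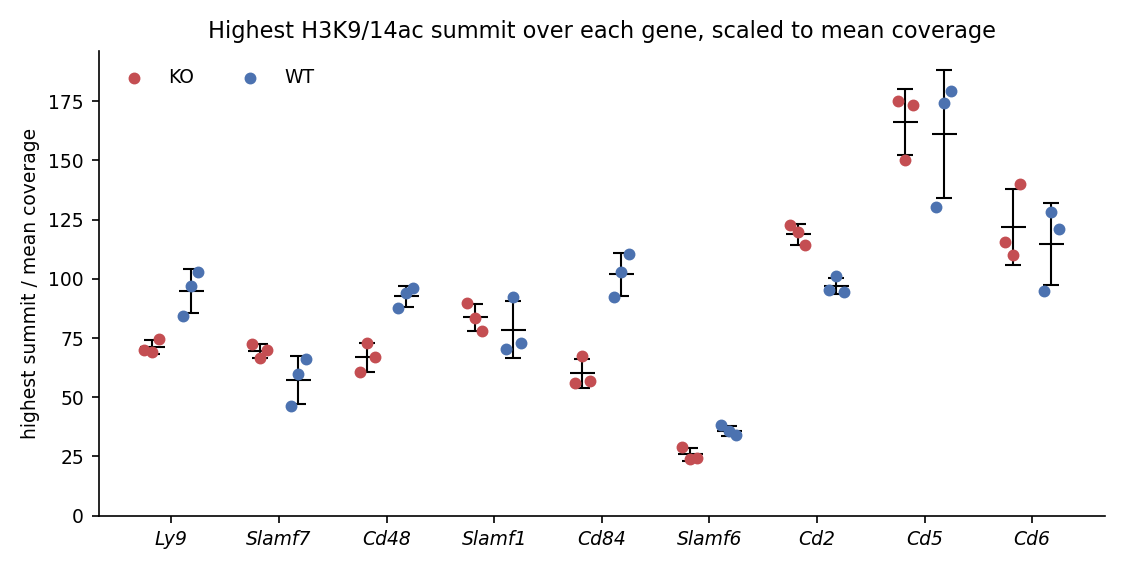
The y axis is the highest recovered summit in each gene's window divided by the library's mean fragment coverage, with 1 point per library (KO left, WT right) and black bars for the mean and SD (n = 3 per genotype). KO libraries lie below WT libraries at Ly9, Cd48, Cd84 and Slamf6 and above them at Slamf7 and Cd2. The genotypes overlap at Slamf1, Cd5 and Cd6. Before scaling, KO libraries, all of lower mean coverage, lie below WT libraries at all 9 genes.

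The direction of summit height after scaling was therefore mixed, with a median KO to WT ratio of 1.03 over the 9 genes and 1.01 over all genes. Over 11631 protein-coding genes, scaled heights of all KO libraries lay below those of all WT libraries at 17.1% and above them at 20.4%. Before scaling, every KO library had a lower highest summit than every WT library at each of the 9 genes (exact permutation p = 0.1 each, two-sided). Every KO library was also shallower than every WT library. No share over all genes is given for unscaled heights, so this order is not read as a trait of these genes.

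Partners of these receptors were called by the same rule. Of 21 genes for other SLAM receptors, SAP family adaptors, tail-binding enzymes and adaptors, and ligands, 18 had a tested region, and by the region of lowest FDR 16 fell and 2 rose in the authors' deposited table. By the same measure, which favours changed regions, 67.6% of 13146 protein-coding genes were lower and 11.8% higher. Some of the 16 had regions of both directions in the authors' deposited table. Lcp2, an adaptor of T cell receptor signals, had 1 region lower and 1 higher and a median of 0.45. Fyn had 2 lower and 2 higher and a median of 0.11. Grap2 had 8 lower and 1 higher (median -0.68), and Alcam 5 lower and 2 higher (median -0.60). Lcp2 was covered over 28071, 27774 and 29178 bp in KO libraries and 23683, 23733 and 26698 bp in WT libraries. The 6 with the lowest FDRs, by the authors' deposited table, were Ubash3a, Cbl, Csk, Ptpn6, Inpp5d and Alcam. Ubash3a, which dampens T cell receptor signals, had -2.13 (FDR 2.23e-17) there, and the ubiquitin ligase Cbl had -1.77 (FDR 6.1e-14). Csk, the kinase that restrains Lck and Fyn, had -2.73 (FDR 1.31e-13), and the phosphatase Ptpn6 (SHP-1) had -1.52 (FDR 2.81e-12). The inositol phosphatase Inpp5d (SHIP-1) had 1.88 (FDR 2.28e-11), and Alcam, the CD6 ligand, had -1.69 (FDR 2.41e-10). Inpp5d was covered over 10882, 10553 and 10658 bp in KO libraries and 7147, 7296 and 7476 bp in WT libraries, without overlap. Csk showed the reverse, with 6869, 7731 and 6093 bp in KO libraries and 15088, 16635 and 16117 bp in WT libraries. The second gene called higher was Pstpip1, an adaptor that binds the CD2 tail (0.70, FDR 0.00791, in the authors' deposited table). Both genes called higher were mixed as well: Inpp5d had 1 region lower and 1 higher, and Pstpip1 1 lower and 2 higher. Cd244a, Slamf8 and Sh2d1b1 had no peak in any library, and both SAP family adaptors with a region, Sh2d1a and Sh2d1b2, were lower in the authors' deposited table (-0.76, FDR 0.0121, and -1.47, FDR 0.000121).

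Across the 6 libraries, the gene most like Cd6 in covered bp was Evi5, at a Euclidean distance of 0.078 on the log2 scale among 11989 genes with peaks in every library, followed by Nek11 at 0.222. Evi5 had 29586, 31880 and 29214 bp in KO libraries and 26873, 25442 and 24000 bp in WT libraries. For Slamf6 the nearest were Fam189b at 0.68 and Myo18a at 0.849. Fam189b had 3239, 2779 and 1512 bp in KO libraries and 7448, 7849 and 8108 bp in WT libraries. Fam189b was picked for its nearness to Slamf6 over these same libraries, so its low value in KO replicate 3 is not a separate finding.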

How the data were processed

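Nuclei were barcoded before pooling (RELACS) and 5 µg of anti-H3K9/14ac was used, per the labels' protocols. Per the submitters' processing notes, the tools were MACS2 2.2.6, deepTools 3.3.2, Bowtie2 2.3.5.1, cutadapt 2.8 and bcl2fastq 2.20.0.422, and the build was GRCm38 (mm10). No source used here names the program behind the differential table. The authors deposited 2 peak lists per library (fragments and single reads), called per library, in which each peak carries a linear fold enrichment (a ratio), a score, a -log10 p-value and a -log10 q-value. The authors' deposited table holds a log2 fold change, p-value and FDR per region but no value per library, so it was not refitted. Its significant regions are listed with their spans and a score.

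Spans were taken from that list for 24128 regions and rebuilt from windows under single-read peaks for 16732; this rebuilt 98.0% of listed spans exactly, the best window placed 21 more, and 28 were not located. The authors count a window up or down at an absolute log2 fold change of 0.5, as tested on the 42 regions of a single window. A peak or region counted on an overlap of at least 1 bp. Summit heights were solved from each peak's fold and p, and in each library 98.8% to 100% of peaks came within 0.01 of their deposited -log10 p; mean coverage was read as the lowest background that 50 or more peaks share. In WT replicates 1 and 2 the pileup was scaled by 0.890 and 0.922, as read from the values. Tested on simulated data, 92.2% to 100% of 600 peaks per scale returned their height. The simulated p-values came from the same formula that was solved. Simulated backgrounds all lay above the mean coverage of every KO library and of WT replicate 3, so lower backgrounds were not simulated. Heights carry counting error that is not included. Against heights in 1297 regions, the authors' log2 fold change had an offset of 0.485 where log2 coverage differed by -0.785.

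Libraries were compared by exact permutation tests in Python 3.11.15 with numpy 2.4.6, pandas 2.3.3 and scipy 1.17.1, with figures by matplotlib 3.10.9. The members, lists, tests and alternatives were chosen with earlier results of these data known. Named genes were the members, Slc2a3, up to 6 related genes by lowest FDR, genes sharing a member's region and listed markers. The 2 genes nearest in covered bp to the members of highest and lowest median were named as well. Pstpip1, Sh2d1a, Sh2d1b2, Lcp2, Fyn, Grap2 and genes without peaks were named after their values were seen. Protein sequences were not used here, and some listed markers are not reported here.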

Additional observations from a re-analysis of the deposited data

How the results depend on the processing

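Direction is what can be compared here, since no exact permutation test of 3 libraries against 3 goes below p = 0.1. Without division by mean coverage, KO minus WT summit height turned to -56.0 at Slamf7, -103.7 at Slamf1, -97.7 at Cd2, -219 at Cd5 and -150 at Cd6 fragments. With single-read lists, the peak count difference over the 9 genes turned to -4.0 and that of covered bp at Slamf1 to 15.7 bp; with 10 kb flanks the peak count difference was -4.33. With -log10 q of at least 5, covered bp differed by -61.0 at Cd2 and 225 at Cd5; with the 39264 strongest peaks per library, by 381 at Cd5. Leaving out each library in turn, the Cd2 cover difference ran between -63.0 and 230.5 bp (below 0 without KO replicate 1 or WT replicate 1). The scaled height difference ran between -10.3 and 14.2 at Cd5 (below 0 without WT replicate 1) and between -2.53 and 14.0 at Cd6 (below 0 without KO replicate 3 or WT replicate 1). The cause was not tested. Regions called higher numbered 1 at an FDR under 0.01 and 1 where the log2 fold change had to reach 1, and the median log2 fold change was -0.094 at coverage scaling, against -0.32 over all regions. Same-numbered KO and WT libraries did not deviate together (correlations 0.02, -0.012 and 0.045 over 1297 regions), and the replicate block (exact sign-flip test) leaves each mean difference as it was by construction, with no p below 0.25 (covered bp over the 9 genes -11687, p = 0.25). Libraries cannot be left out of the authors' deposited table.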
